A study of Caenorhabditis elegans with 95 samples.

Results

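The *C. elegans* genes *fmo-1*, *fmo-2*, *fmo-3*, *fmo-4* and *fmo-5* encode flavin-containing monooxygenases. They were taken by their symbols, as 5 of the 46904 genes of the count table, and all 5 were found. They were chosen by values of these data, in that the level of *fmo-2* was lowest in 1 series of libraries, named C after the letter of its library names. Levels by library series are therefore described without a test.

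Flavin-containing monooxygenases use NADPH and a bound flavin to put an oxygen atom onto nitrogen or sulfur atoms of drugs, dietary compounds and endogenous metabolites. In worms, *fmo-2* is known to be induced by HIF-1, the transcription factor of the hypoxic response, and upon dietary restriction, with NHR-49 among the nuclear receptors it needs, and its product is required for the longer life of worms in both states. *fmo-4* is known for a part in the tolerance of low osmolarity and acts with *fmo-2* in longevity. The cytochrome P450 enzymes, with their reductase EMB-8, are the other large family of monooxygenases that handle foreign compounds.

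RNA of whole worms was measured by RNA-seq in 95 libraries, 1 from each of 85 RIAILs, 6 from CB4856 (Hawaii) and 4 from N2 (Bristol). RIAILs are recombinant inbred advanced intercross lines, here derived from QX1430 and CB4856. QX1430 has an N2 background with deletions of confounder genes, so the N2 libraries are not of the exact parent of the RIAILs. All groups were fed *E. coli* HT115 and received 15 μg/mL doxycycline (Dox), which blocks protein synthesis in mitochondria, so every level below is a level on Dox. The study's methods for RNA-seq start Dox with L1 larvae and end at L4, and one legend adds young adulthood. The labels start Dox at L4, use the offspring and name 5FU plates, so stage and exposure to 5FU are not settled. Whether libraries of a parental strain are from different cultures is not stated. In 21 pairs of libraries of the same strain, chi-squared per degree of freedom was 14 to 215, so they differed by more than counting error. The p-values reflect this spread between libraries, and whether it is one of cultures or technical is not settled.

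The library letters A to G formed 7 series, and what the letters stand for is not stated. RIAILs numbered 11 in series C and 7, 10, 13, 11, 19 and 14 in series A, B, D, E, F and G. CB4856 had 1 library in every series but D, and N2 had 1 in each of series B, D, F and G. The total count was 22121202 to 23879871 per library. Every marker of the intestine, hypodermis, body-wall muscle, pharynx, neurons, excretory system and germline had a median of at least 1 CPM (read counts per 1000000 reads, scaled by TMM, edgeR's normalisation) over the libraries, and 1 of 7 male markers did. In whole worms, fewer cells of a type and less RNA per cell cannot be told apart.

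*fmo-1* and *fmo-2* lie on the plus strand of chromosome IV of WBcel235, at 10661857 to 10664404 and 10682524 to 10684367. The 18119 bases between them hold 3 protein-coding genes, *K08C7.7*, *epi-1* and *K08C7.4*. *fmo-3* lies on chromosome III at 10694681 to 10698864 on the plus strand. *fmo-4* lies on chromosome V at 13603276 to 13606701 and *fmo-5* at 899304 to 903665 on the same chromosome, both on the minus strand. None of the 5 genes overlaps another annotated gene. *K08C7.7*, on the plus strand, starts 29 bases after *fmo-1*. *K08C7.6*, on the minus strand, has its end 64 bases after that of *fmo-2*. How reads shared between paralogs were handled is not stated in the sources.

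Per kilobase of exon, *fmo-4* was the most abundant member and *fmo-2* the least. The median over the 85 RIAILs was 64.6 CPM per kb for *fmo-4*, 22.6 for *fmo-1*, 8.97 for *fmo-3*, 8.62 for *fmo-5* and 4.04 for *fmo-2*. *fmo-4* was above 91.98% of the 19901 protein-coding genes by this median, *fmo-1* above 79.47%, *fmo-3* above 60.68%, *fmo-5* above 59.98% and *fmo-2* above 47%. The medians of *fmo-3* and *fmo-5* differed by less than the SD over RIAILs of either gene, 4.42 and 3.01 CPM per kb, and that of *fmo-2* lay below that of *fmo-5* by less than its own SD of 5.95. Set against these SDs, the 5 medians fall into 3 steps, with *fmo-3*, *fmo-5* and *fmo-2* in the lowest. The SDs are spreads over lines, and that of *fmo-2* includes the differences between series given below. The genes were not compared within each library, so their order within this step was not tested. The lowest RIAIL for *fmo-4* (26.5 CPM per kb) was below the highest for *fmo-1* (46.2 CPM per kb).

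**Figure D1:**
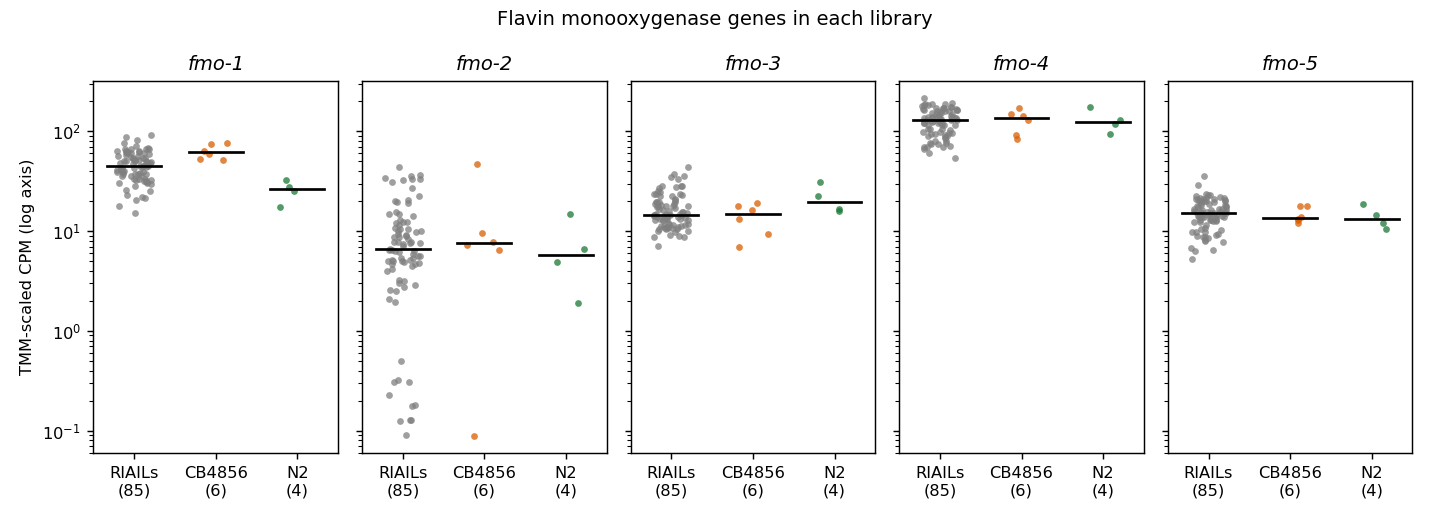
TMM-scaled CPM (log axis) of the 5 flavin monooxygenase genes in each library, with RIAILs (85) left of CB4856 (6) and N2 (4), where each point is 1 library and the bar is the group's median. For *fmo-1* all 6 CB4856 points lie above all 4 N2 points, and for *fmo-2* 11 RIAILs and 1 CB4856 library lie below 0.5 CPM.

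Of the 5 genes, *fmo-1* was higher in CB4856 than in N2, and the other 4 did not pass the test. In CB4856, *fmo-1* was at 52.4 CPM in series A, 76.4 in B, 63.8 in C, 74 in E, 59 in F and 51.6 in G. In N2 it was at 32.3, 25.3, 17.3 and 27.6 CPM in series B, D, F and G. The lowest CB4856 library was above the highest N2 library, so the strains did not overlap. The mean level was 62.9 CPM (SD 10.6) over the 6 CB4856 libraries and 25.6 CPM (SD 6.30) over the 4 N2 libraries. The log2 fold change, CB4856 over N2, was 1.34 with a standard error of 0.19 and a 95% interval of 0.92 to 1.76 (adjusted p = 0.00076 by the quasi-likelihood test of edgeR), or 2.53-fold. Over all 15718 genes tested, 8.79% were called higher in CB4856, 7.28% were called lower, and 7.17% had every CB4856 library above every N2 library. Against this background, 1 of 5 members called is not a result about the family.

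The difference in *fmo-1* had the same sign in each series that holds both strains. CB4856 was above N2 by 1.24 on the log2 scale in series B, 1.77 in series F and 0.90 in series G. Blocking on the library letter left the log2 fold change at 1.34 but raised the adjusted p to 0.0546 (edgeR), and the call was lost. Intestine markers were also higher in CB4856. *elt-2*, which encodes the GATA factor of the intestine, had a log2 fold change of 1.14 (adjusted p = 9.7e-05, edgeR) and *ges-1*, a gut esterase gene, one of 0.80 (adjusted p = 0.0038, edgeR). These were the 2 called of 5 intestine markers, whose median was 0.73, against a median of -0.0048 over all genes. Of 12 oocyte genes 5 were called lower in CB4856 (median -1.47), and of 14 sperm genes 1 was (median -0.74), and their part in the level of *fmo-1* was not tested. A fit with the mean z score of the intestine markers as a covariate, which was chosen once the data had been seen, gave *fmo-1* a log2 fold change of 1.62 (adjusted p = 0.0394, edgeR) and called 741 genes in place of 2525. CB4856 reads were mapped on N2 sequence, and the part of that in the differences was not tested.

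*fmo-2* varied more among libraries of a strain than between the strains. In CB4856 it was at 7.80 CPM in series A, 9.52 in B, 0.0875 in C, 6.53 in E, 7.24 in F and 46.6 in G, and in N2 at 6.58, 4.94, 1.91 and 14.7 CPM in series B, D, F and G. The library of series C had 2 counts, and that of series G had 1067. The strains overlapped. The log2 fold change of 0.94 had a standard error of 1.01 and a 95% interval of -1.29 to 3.17 (adjusted p = 0.587, edgeR), which holds differences in either direction. Without the CB4856 library of series G it was -0.14 (adjusted p = 0.946, edgeR). Without that of series C, a series with no N2 library, it was 1.20 (adjusted p = 0.339, edgeR). Within a series, CB4856 was above N2 in 3 of 3 pairs, by 0.53 on the log2 scale in series B, 1.88 in series F and 1.66 in series G. With 1 library of each strain per series, these 3 differences carry no test of their own. Blocking on the letter gave a log2 fold change of 1.41 (adjusted p = 0.158, edgeR).

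*fmo-3* was lower in CB4856 in 3 of 3 such pairs but did not pass the test. Its mean was 13.8 CPM (SD 4.86) over the CB4856 libraries and 21.5 CPM (SD 7.07) over those of N2, with a log2 fold change of -0.60, a standard error of 0.31 and an adjusted p of 0.229 (edgeR). The CB4856 libraries of series E (6.96 CPM) and B (9.30 CPM) were the lowest, and the N2 library of series B (31.2 CPM) was the highest. *fmo-4* averaged 127 CPM (SD 33.7) in CB4856 and 129 CPM (SD 33.8) in N2, with a log2 fold change of 0.030 and a 95% interval of -0.50 to 0.56. *fmo-5* averaged 14.6 CPM (SD 2.56) in CB4856 and 13.9 CPM (SD 3.50) in N2, with a log2 fold change of 0.11 and a 95% interval of -0.31 to 0.54. For both genes the intervals hold changes of up to about 0.5 on the log2 scale, so smaller differences between the strains were not detectable with these libraries.

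**Figure D2:**
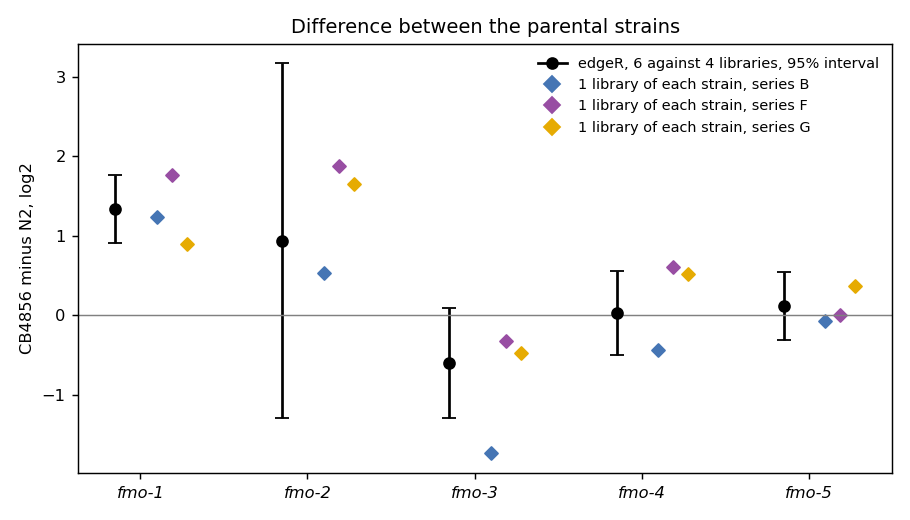
CB4856 minus N2 on the log2 scale for each gene. Black points are edgeR's log2 fold changes over 6 CB4856 and 4 N2 libraries with 95% intervals, and diamonds are differences between 1 library of each strain within series B, F and G. The interval of *fmo-1* (0.92 to 1.76) lies above 0, and that of *fmo-2* (-1.29 to 3.17) is the widest.

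The nearest genes to *fmo-1* and *fmo-2* are *K08C7.1*, *K08C7.7*, *K08C7.4* and *K08C7.6*, of which 1 was called. Over all genes tested, 8.79% were called higher in CB4856 and 7.28% lower. *K08C7.4* lies between *fmo-1* and *fmo-2* on the minus strand. It averaged 3.48 CPM (SD 0.529) in CB4856 and 1.34 CPM (SD 0.494) in N2, with a log2 fold change of 1.41 (adjusted p = 0.0038, edgeR). With the library letter as a block its adjusted p was 0.122 (edgeR). Its annotated span overlaps the end of *epi-1*, and the strand setting of the counts is not stated, so reads of the overlap cannot be told apart. *K08C7.7*, which starts next to the end of *fmo-1*, had a log2 fold change of -0.14 with a 95% interval of -0.62 to 0.35. That of *K08C7.1*, on the other side of *fmo-1*, was 0.61 (95% interval 0.07 to 1.16, adjusted p = 0.118, edgeR). For *K08C7.6* it was -0.12 (95% interval -0.50 to 0.27).

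Among genes of the pathways in which *fmo-2* is known to act, those called were higher in CB4856. This was not particular to them. Of 14 genes of the mitochondrial unfolded protein response, 6 were called higher and 0 lower (median 0.34). Over all genes tested, 8.79% were called higher and 7.28% lower. Of 6 regulators of HIF-1, 2 were called higher, namely *hif-1* itself, with a log2 fold change of 0.35 (adjusted p = 0.0327, edgeR), and *egl-9*, the prolyl hydroxylase that marks HIF-1 for degradation, with 0.50 (adjusted p = 0.0434, edgeR). The median of this list was 0.32. Of 6 other HIF-1 targets, *nhr-57*, a nuclear receptor gene used as a reporter of HIF-1 activity, was called higher by 0.94 (adjusted p = 0.0043, edgeR), with a list median of 0.24. Of 7 NHR-49 targets, 2 were called higher, *icl-1*, a glyoxylate cycle enzyme, by 1.02 (adjusted p = 0.0153, edgeR) and *hacd-1*, a hydroxyacyl-CoA dehydrogenase of fatty acid oxidation, by 0.81 (adjusted p = 0.0126, edgeR), with a list median of 0.52. Of 6 regulators of fasting that include *nhr-49*, edgeR called 0 (1 at an unadjusted p under 0.05, 0 by DESeq2 and by limma-voom), and of 6 genes of endoplasmic reticulum calcium, which act with *fmo-4*, it called 0 (2 at an unadjusted p under 0.05, 1 by DESeq2, 0 by limma-voom), with medians of 0.10 and 0.27.

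Of 14 genes of one-carbon and methionine metabolism, 2 were called higher, *tyms-1*, the thymidylate synthase, by 0.65 (adjusted p = 0.0100, edgeR) and *gcst-1*, a gene of the glycine cleavage system, by 0.53 (adjusted p = 0.0023, edgeR), with a list median of 0.31. In the other monooxygenase family, of 8 tested genes among *emb-8* and 10 *cyp-35* genes, 5 were called higher and none lower, and the median of the list was 0.85. *cyp-35A5* averaged 32.3 CPM (SD 6.34) in CB4856 and 6.06 CPM (SD 0.640) in N2, and was higher by 2.47 on the log2 scale (adjusted p = 4.6e-06, edgeR). *cyp-35B1* was higher by 2.34 (adjusted p = 0.0017, edgeR) and *cyp-35D1* by 1.24 (adjusted p = 0.0245, edgeR). The *cyp-35* genes are closely related, so reads may be shared among them. These counts are a description beside the 8.79% of all genes called higher.

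Several of these calls and counts changed when single libraries were left out or when the series was blocked. Only series B, F and G hold both strains, so a block on the letter compares few libraries. A call lost with it does not show that the difference rested on the series. Without the N2 library of series B, edgeR called 4 of 6 endoplasmic reticulum calcium genes, 6 of 14 one-carbon genes, 3 of 6 HIF-1 regulators, 2 of 6 HIF-1 targets and 1 of 6 fasting regulators, all higher. The count for *emb-8* and the *cyp-35* genes was 2 of 8 without the N2 library of series G, 3 without that of series D or F, and 1 when blocked on the library letter. That for NHR-49 targets was 1 of 7 without the N2 library of series F. In 10 fits that each left out 1 parental library, the call of *hif-1* was lost in 7 and that of *egl-9* in 8, *icl-1* lost its call without the N2 library of series F (adjusted p = 0.0568, edgeR), and *cyp-35D1* lost its call without the N2 library of series F (0.0859) or G (0.0693). A replicate block on batch numbers, which 8 libraries carry in their titles, ended 5 calls in edgeR (adjusted p = 0.126 for *hif-1*, 0.125 for *egl-9*, 0.0932 for *icl-1*, 0.0691 for *hacd-1* and 0.0506 for *gcst-1*). All but *gcst-1* were also lost in these 8 libraries without the block. When blocked on the library letter, *hacd-1* and *cyp-35A5* were the 2 of these 10 named genes still called. With the intestine score as a covariate, *cyp-35A5* was.

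Between the 85 RIAILs and the parental libraries no member passed the test. The log2 fold change of RIAILs over the mean of both parental strains was 0.21 for *fmo-1* (95% interval -0.13 to 0.54), 0.063 for *fmo-2* (-1.01 to 1.14), -0.019 for *fmo-3* (-0.39 to 0.36), -0.0045 for *fmo-4* (-0.30 to 0.29) and 0.11 for *fmo-5* (-0.22 to 0.44). None of the 5 had an unadjusted p under 0.05 in edgeR, and none was called by limma-voom or DESeq2. Over all 17058 genes, 0.0293% were called.

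The lines spread over and between the parental levels of *fmo-1*. It ran from 15.3 CPM in QX574 to 92.4 CPM in QX564, with a median of 45.3 CPM. Of the 85 RIAILs, 25 were within the range of the CB4856 libraries, 17 within that of the N2 libraries and 39 between the lowest CB4856 and the highest N2 library, while 3 were above every parental library and 1 below. *fmo-4* ran from 53.6 CPM in QX531 to 216 CPM in QX550, with 10 lines above and 13 below every parental library. *fmo-5* ran from 5.22 CPM in QX511 to 35.6 CPM in QX536, with 22 above and 18 below, and *fmo-3* from 7.04 CPM in QX568 to 43.5 CPM in QX571, with 5 above and none below. The parental ranges rest on 10 libraries, so a line outside them is a description.

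Each RIAIL had 1 library, so variation among lines within series was tested against the spread between libraries of the same parental strain. No member passed. The F statistic was 2.99 for *fmo-1* (adjusted p = 0.249, edgeR), 2.39 for *fmo-5* (adjusted p = 0.387), 1.48 for *fmo-4* (adjusted p = 0.701), 1.35 for *fmo-3* (adjusted p = 0.767) and 0.218 for *fmo-2* (adjusted p = 1, all edgeR). Before adjustment *fmo-1* had p = 0.0258 and was the 1 member under 0.05, and limma-voom called none. Over all 17058 genes, 4.63% were called. The SD within series was larger than that between libraries of a parental strain for *fmo-1*, 0.49 against 0.30 on the log2 scale, and for *fmo-5*, 0.45 against 0.29. For *fmo-3* and *fmo-4* the pairs of SDs were close, at 0.53 against 0.53 and 0.43 against 0.39. The libraries of a parental strain lay in different series, so their spread includes differences between series, and for *fmo-2* the SD was 0.71 among RIAILs within series against 2.23 between libraries of a parental strain.

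*fmo-2* was almost absent from the libraries of series C. In the 11 RIAILs of this series it had 2 to 11 counts, 56 in all, with 0.0897 to 0.496 CPM and a median of 0.181 CPM. In the other 74 RIAILs the median was 7.81 CPM, which is 43.1 times as high. Each of these 74 was above all 11, with the lowest, of series D, at 1.96 CPM, just outside the gap, and the highest of series C at 0.496 CPM just inside it. The 1 CB4856 library of series C, at 0.0875 CPM, was as low as these RIAILs, although the other 5 CB4856 libraries were between 6.53 and 46.6 CPM, so within CB4856 the low level was found in series C alone.

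Series also differed at the upper end of *fmo-2*. The RIAIL median was 13 CPM in series A, 8.04 in B, 7.83 in D, 5.4 in E, 4.93 in F and 26.7 in G. In series G all 14 RIAILs were at 10.0 to 44 CPM, and both the CB4856 and the N2 library of that series were the highest of their strain. Series accounted for 87.4% of the variance of log2 CPM of *fmo-2* over the 85 RIAILs, and for 56.2% without series C. For *fmo-5* this share was 30.9%, for *fmo-4* 16.7%, for *fmo-1* 16.5% and for *fmo-3* 11.4%.

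**Figure D3:**
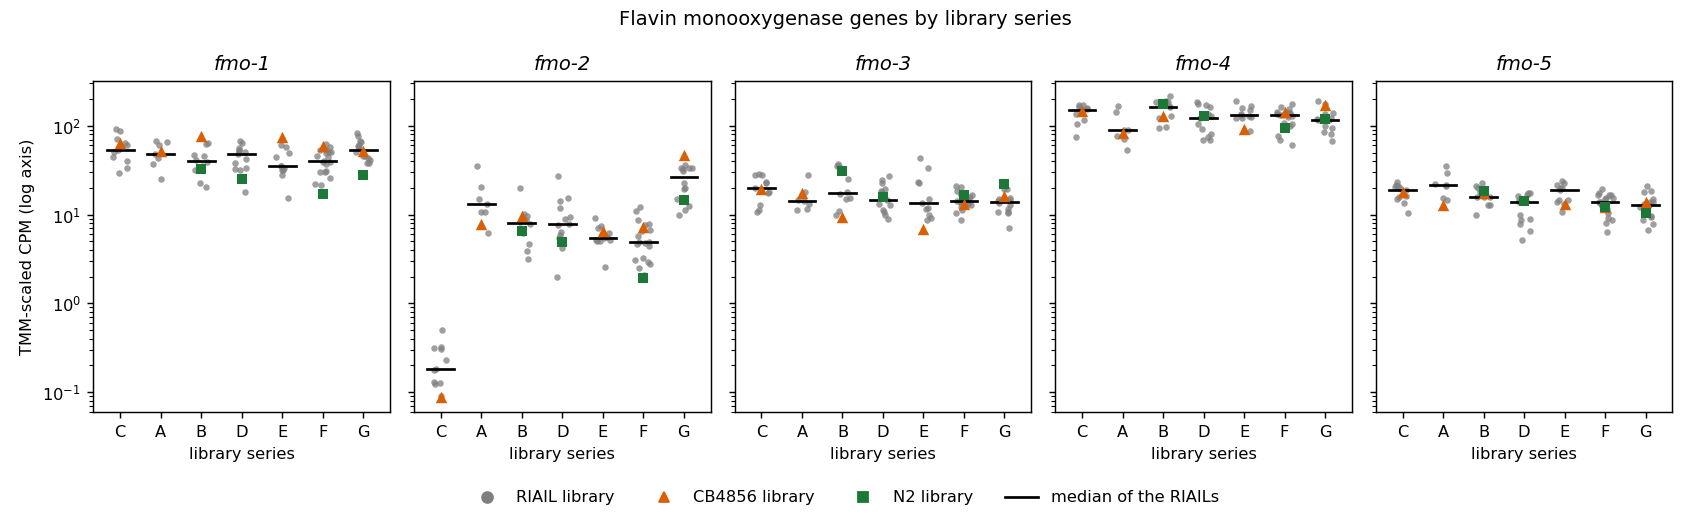
TMM-scaled CPM (log axis) of each gene by library series, with series C leftmost. Grey points are RIAIL libraries, orange triangles CB4856, green squares N2, and bars are medians of the RIAILs. The 11 RIAILs and the CB4856 library of series C lie below 0.5 CPM for *fmo-2*, while the other 4 genes overlap between series.

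The other members were not low in series C. Their medians in the RIAILs of series C, against the other 74 RIAILs, were 53.5 against 44.4 CPM for *fmo-1*, 19.7 against 14.5 CPM for *fmo-3*, 150 against 127 CPM for *fmo-4* and 19 against 14.6 CPM for *fmo-5*, with overlapping ranges in each case. The nearest genes to *fmo-2* were also close, with medians of 3.22 against 3.39 CPM for *K08C7.4* and 17.1 against 20.7 CPM for *K08C7.6*. The medians of some gene lists also differed between series C and the others, with overlapping ranges and no test. The summed level of 20 molting genes was 2024 to 10257 CPM (median 6353) in the RIAILs of series C and 968 to 11181 CPM (median 3261) in the others. That of 6 vitellogenin genes was 58.8 to 5780.4 CPM (median 745) in series C and 199 to 34793 CPM (median 4049) in the others, and that of 14 genes of the mitochondrial unfolded protein response 1402 to 2063 CPM (median 1700) and 1630 to 2636 CPM (median 2075). The summed level of the 5 intestine markers was 1577 to 2261 CPM (median 2007) in the RIAILs of series C and 1355 to 3576 CPM (median 1954) in the others. The part of stage or of handling by series in the level of *fmo-2* was not tested.

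Over the RIAILs, *fmo-1* and *fmo-3* moved in opposite directions. Over 85 RIAILs Pearson's r was -0.461, with a permutation p of 3e-05 that became 3e-04 when adjusted over 10 pairs. Spearman's rho was -0.439, with a permutation p of 6e-05 (6e-04 adjusted). Without QX520 and QX574, the 2 lines farthest from the median of *fmo-1*, r was -0.406. Within the 7 series r ran from -0.736 to 0.0656 and was positive in 1, and with values centred within series it was -0.522 (adjusted p = 3e-04). The sign is also that of the parental values, with *fmo-1* higher and *fmo-3* lower in CB4856, although only *fmo-1* was called there.

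*fmo-1* and its neighbour *fmo-2* moved together outside series C. Because the RIAILs of series C stand apart for *fmo-2*, its relations were computed over the other 74 lines, a choice made after its levels were seen. Over all 85 lines its r with *fmo-1* was 0.050. Over the 74, r was 0.466, with a permutation p of 4e-05 (2e-04 adjusted), and rho was 0.463, with a permutation p of 3e-05 (0.00025 adjusted). It was 0.472 without QX520 and QX574, ran from -0.115 to 0.747 within the 6 series and was 0.322 (adjusted p = 0.0231) after centring. Within series C, r was 0.464 over 11 lines (permutation p = 0.15), at 2 to 11 counts a library.

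The third pair that passed was *fmo-3* with *fmo-4*. Over 85 RIAILs r was 0.336, with a permutation p of 0.00151 (0.00755 adjusted), and rho was 0.406, with a permutation p of 0.00017 (0.00085 adjusted). It was 0.292 without QX555 and QX571, ran from -0.377 to 0.691 within series and was 0.272 (adjusted p = 0.0233) after centring. Of the 10 pairs, 3 passed as measured and 6 passed after centring within series. The 3 added ones were *fmo-2* with *fmo-5* (r = 0.432, adjusted p = 0.0017), *fmo-1* with *fmo-5* (r = 0.288, adjusted p = 0.0230) and *fmo-4* with *fmo-5* (r = 0.271, adjusted p = 0.0349), all as centred permutation tests.

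**Figure D4:**
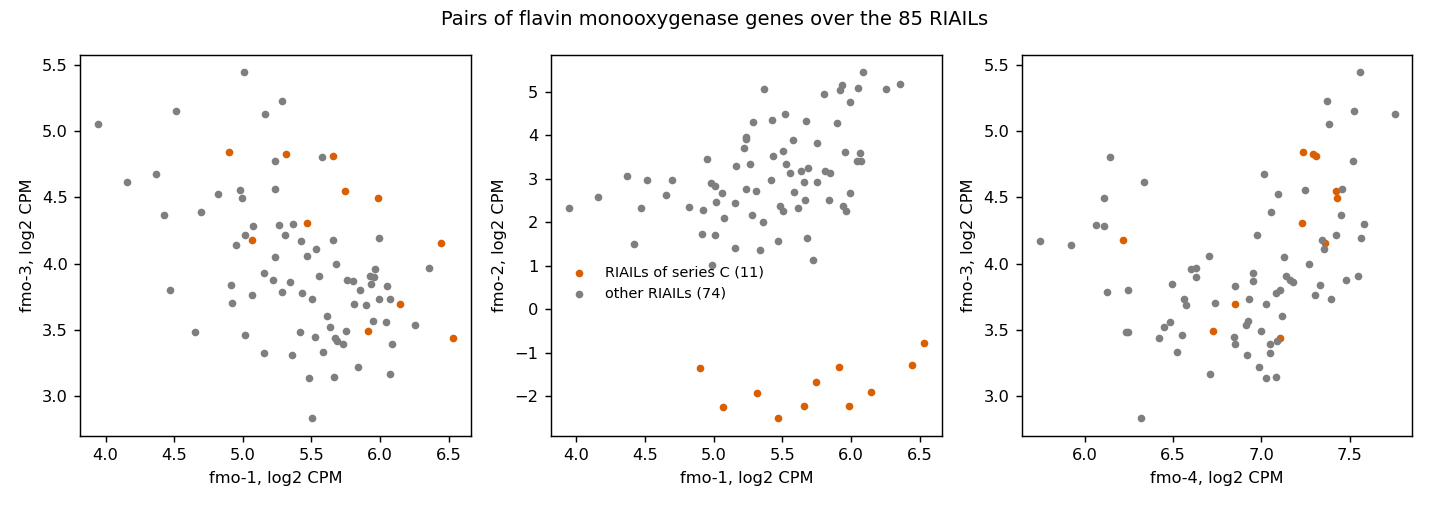
Log2 CPM of *fmo-3* against *fmo-1*, *fmo-2* against *fmo-1* and *fmo-3* against *fmo-4*, where each point is 1 of 85 RIAILs, with the 11 of series C in orange. The left panel falls (r = -0.461), the right panel rises (r = 0.336), and in the middle panel the 11 lines of series C lie apart from the other 74, over which r was 0.466.

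Each member was also set against the mean z scores of 8 gene lists over the RIAILs, which gave 40 pairs, of which 10 had a positive and 9 a negative r at an adjusted permutation p under 0.05. By Spearman's rho 17 passed. After centring within series 22 passed, 17 of them among the 19. *fmo-4* had the strongest relations. With 20 molting genes, which are transcribed in waves before each molt, r was 0.745 (permutation p = 1e-05, the smallest that 100000 resamples can give, adjusted p = 5.7e-05) and rho was 0.742 (permutation p = 1e-05). It was 0.746 without QX531 and QX579, ran from 0.0739 to 0.950 within series and was 0.725 after centring. With the vitellogenins, which encode yolk proteins of adult hermaphrodites, r was -0.712 (rho = -0.772, both permutation p = 1e-05), with -0.685 without the same 2 lines, -0.935 to 0.0739 within series and -0.694 after centring. With 12 oocyte genes r was -0.615 (rho = -0.595, both permutation p = 1e-05), with -0.639 without the 2 lines and -0.917 to -0.222 within series. Lines high in *fmo-4* tended to be high in molting genes and low in yolk and oocyte genes.

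*fmo-3* had the same signs at smaller size, with r = 0.553 for molting (rho = 0.585, both permutation p = 1e-05) and -0.489 for vitellogenins (rho = -0.482, permutation p = 1e-05 and 2e-05). Without QX555 and QX571 these were 0.522 and -0.443, and within series they ran from -0.218 to 0.920 and from -0.907 to 0.590. With 14 genes of the mitochondrial unfolded protein response *fmo-3* had r = -0.390 (rho = -0.361, adjusted permutation p = 0.0008 and 0.0028), with -0.361 without the 2 lines, negative in each of the 7 series (-0.769 to -0.0630) and -0.379 after centring. As measured, no other member passed with that list. After centring, *fmo-1* (r = 0.355, adjusted permutation p = 0.0037, positive in each of the 7 series) and *fmo-5* (r = 0.268, adjusted permutation p = 0.0414) also passed, both with the opposite sign to *fmo-3*. *fmo-5* had its largest value with oocyte genes (r = -0.458, rho = -0.389, adjusted permutation p = 5.7e-05 and 0.0015), with -0.374 without QX511 and QX591, -0.715 to 0.259 within series and -0.362 after centring. For *fmo-1* the list that passed by r as measured was adult cuticle, with r = 0.339 (adjusted permutation p = 0.005), 0.256 without QX520 and QX574 and 0.447 after centring (adjusted permutation p = 3e-04), while rho was 0.197 (adjusted permutation p = 0.125). By rho, *fmo-1* passed with molting instead (rho = -0.266, adjusted permutation p = 0.035), where r was -0.226 (adjusted permutation p = 0.0712).

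**Figure D5:**
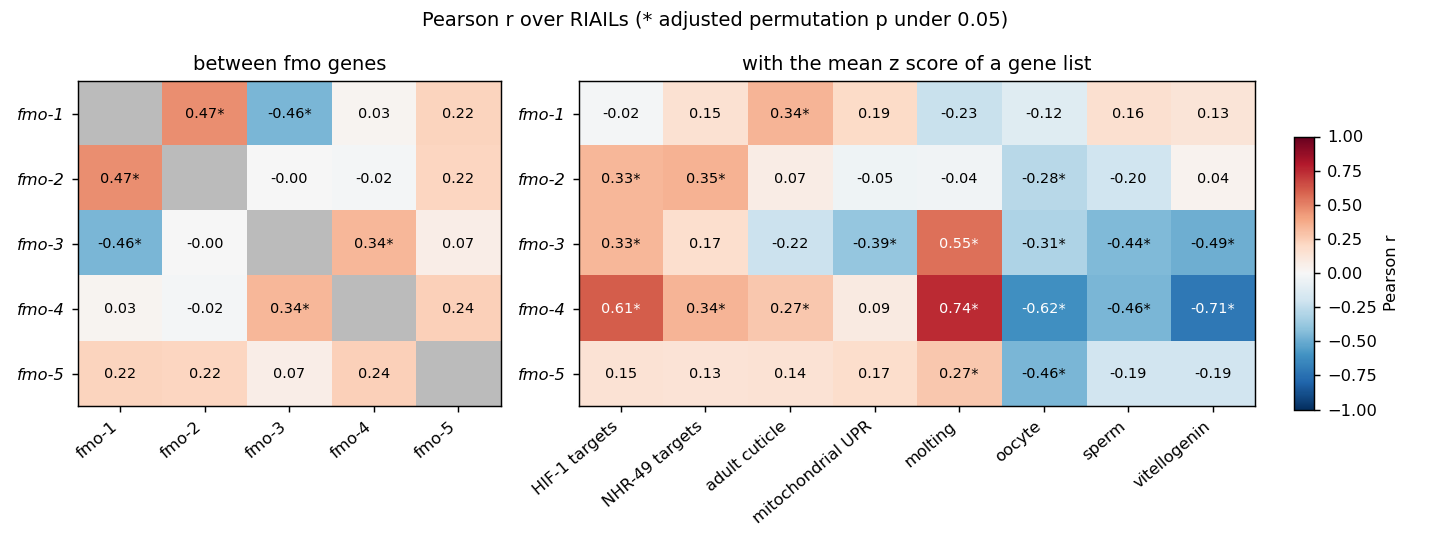
Pearson's r over RIAILs between the 5 genes (left) and with the mean z scores of 8 gene lists (right), where an asterisk marks an adjusted permutation p under 0.05. Pairs with *fmo-2* use the 74 RIAILs outside series C and the others use 85. The row of *fmo-4* holds the largest values, 0.74 with molting and -0.71 with vitellogenins.

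The lists nearest to the known control of *fmo-2* had moderate relations with it over the 74 RIAILs outside series C, of a size that other lists and members also reached. With the 6 HIF-1 targets r was 0.331 (rho = 0.319, adjusted permutation p = 0.0109 and 0.0156), with 0.347 without QX501 and QX537, -0.450 to 0.771 within series and 0.394 after centring. With the 7 NHR-49 targets r was 0.350 (rho = 0.380, adjusted permutation p = 0.0063 and 0.0033), with 0.338 without the 2 lines, -0.238 to 0.564 within series and 0.277 after centring. *fmo-4* had a larger r with the same HIF-1 targets, 0.606 (rho = 0.597, both permutation p = 1e-05), which was 0.633 without QX531 and QX579, 0.326 to 0.817 within series and 0.649 after centring. *fmo-3* had r = 0.328 with them (adjusted permutation p = 0.0064). With the NHR-49 targets, *fmo-4* had r = 0.341 (rho = 0.344, adjusted permutation p = 0.0050 and 0.0042), with 0.149 to 0.883 within series and 0.443 after centring. *fmo-2* also passed with oocyte genes by r (-0.280, adjusted permutation p = 0.0351, and -0.338 centred) but not by rho (-0.259, adjusted permutation p = 0.0519). After centring alone, *fmo-2* passed by r with molting (0.308, adjusted permutation p = 0.0249) and sperm genes (-0.279, adjusted permutation p = 0.036). Differences between these values of r were not tested. Each score gave its genes equal weight. In both parental strains *gst-19* and *oac-54* of the HIF-1 targets averaged under 1 CPM, as did *cpt-3* of the NHR-49 targets. The part of molting in the relation of *fmo-4* with the HIF-1 targets was not tested.

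The genes most like each member over the RIAILs were of different kinds. For *fmo-4*, *cpn-2*, a calponin gene, *Y53F4B.27*, *mlt-8*, a molting gene of the list above, *T19B10.2* and *F47B7.2* had r of 0.910, 0.909, 0.908, 0.907 and 0.907. For *fmo-3*, *zmp-4*, a zinc metalloprotease gene, *F43D2.6*, *bcc-1*, *F29C6.1* and *Y73B6BL.44* had r of 0.870, 0.859, 0.836, 0.834 and 0.818. For *fmo-1*, *zig-9*, *C05C12.4*, *F57C12.2*, *obr-3* and *F49E12.10* had r of 0.786, 0.780, 0.768, 0.737 and 0.729. These values are descriptions over 85 lines, out of 12780 genes compared, with 3 of 5 genes kept for each of these 3 members after centring within series.

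For *fmo-2*, the 5 genes most like it over all 85 RIAILs were *adh-1*, an alcohol dehydrogenase gene, *gst-4*, a glutathione S-transferase gene of the oxidative stress response, *alh-1*, an aldehyde dehydrogenase gene, *F36G3.2* and *H04M03.3*, with r of 0.765, 0.717, 0.696, 0.681 and 0.675. Series accounted for 87.4% of the variance of *fmo-2* over these lines, so a high r favours genes that are low in series C. A lower level there is thus no separate result. All 5 had a lower mean log2 CPM in the RIAILs of series C than in the others, by unequal amounts, from *adh-1* (3.13 in series C and 5.51 in the others) to *F36G3.2* (3.62 and 4.10) and *alh-1* (7.51 and 7.95). After centring within series their r was 0.098 to 0.366, and none was among the 5 most like *fmo-2*. Those were then *cyp-29A3*, *cyp-35D1*, *oac-10*, *M60.7* and *clec-43*, with r of 0.553, 0.552, 0.550, 0.537 and 0.537. Over all 85 lines without centring, the r of these genes was -0.268, -0.312, -0.011, 0.096 and -0.117. Each of them had a higher mean log2 CPM in the RIAILs of series C than in the others. The centred values include the lines of series C, where *fmo-2* had few counts.

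For *fmo-5*, the 5 most alike were *nhr-210*, *C14C6.2*, *nhr-180*, *cyp-35D1* and *W03D8.8*, with r of 0.660, 0.650, 0.630, 0.623 and 0.584. *nhr-210*, *C14C6.2* and *nhr-180* lie within 0.38 megabases of it on the left arm of chromosome V. Of the 50 genes most like *fmo-5*, 14 (28%) lay within 1 megabase of it, against 1.46% of all 12780 genes compared, and the count was also 14 after centring. The same count of 50 was 1 for *fmo-1*, 2 for *fmo-2*, 3 for *fmo-3* and 0 for *fmo-4*, where 2.28% to 3.06% of all genes lay as near. The window was chosen after the values were seen, and genotypes are not used here.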

How the data were processed

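The authors checked reads with FastQC, used STAR (version 2.73a, per the labels and methods) for alignment to WBcel235, and deposited raw read counts per gene, 1 column per library. The counter, its strand setting and the annotation release are not stated in the sources. Totals of 22121202 to 23879871 limit each value by counting error and, between lines, by 1 library per RIAIL. No 2 libraries had identical counts. Positions and exon lengths come from the Ensembl annotation of WBcel235.

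In R 4.3.3 the counts were tested by edgeR 4.0.16 (filterByExpr, TMM, quasi-likelihood, Benjamini-Hochberg over all genes tested, threshold 0.05), with DESeq2 1.42.0 and limma 3.58.1 (voom) as alternatives. CB4856 was compared with N2 on 10 libraries, and RIAILs with the mean of both strains on 95. Variation among RIAILs was an F test of strain coefficients within series. Log2 CPM used a prior count of 2, and correlations 100000 permutations, two-sided, in Python 3.11.15 (numpy 2.4.6, scipy 1.17.1, pandas 2.3.3). Pairs with *fmo-2* were taken outside series C, a choice made after its levels were seen. Count tests were tested on simulated data.

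The members, lists and tests were chosen with earlier results of these data known. Genes named are the 5 members, the 5 genes of highest r with each (mean log2 CPM of at least 1), and up to 3 called genes of largest log2 fold change per pathway list. Neighbours, markers and the genes most like *fmo-2* after centring were named after their values were seen. The titles number 4 CB4856 and 4 N2 libraries as batches, taken as pairs on that ground. Batch 1 joins CB4856 of series C with N2 of series B, and batch 2 joins CB4856 of series E with N2 of series D. Batches 3 and 4 each lie within 1 series, F and G. In batches 1 to 4, deviations of the paired libraries from strain means correlated at r = 0.684, 0.194, 0.0873 and -0.511. Alternatives were other tools, scaling, filters, blocks, covariates and leaving out libraries. Untreated worms, genotypes and sequences are not analysed here.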

Additional observations from a re-analysis of the deposited data

Results flagged for a closer look

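The highest and lowest library of each gene was compared with its neighbour in groups of 4 to 10 libraries. These were CB4856, N2 and the RIAILs of series A and B. In 3 of the 20 sets a library lay farther from the others than Dixon's 95% critical value allows. The comparison used CPM without a log. A share of about 1 in 20 holds for normally distributed values, which was not checked for CPM, so the flags are a description. *fmo-2* was at 46.6 CPM in the CB4856 library of series G, with the next CB4856 library at 9.52 CPM. The lowest CB4856 library, of series C at 0.0875 CPM, was not flagged on this scale. *fmo-2* was at 19.7 CPM in QX555, with the next RIAIL of series B at 10.1 CPM. *fmo-3* was at 27.9 CPM in QX589, with the next RIAIL of series A at 17.9 CPM.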

How the results depend on the processing

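*fmo-1* was higher in CB4856 in every alternative run, with a log2 fold change of 1.18 to 1.5 without 1 library. Blocking on the library letter gave 1.34, and the call was lost (adjusted p = 0.0546, edgeR). The replicate block of batch numbers gave 1.34 (adjusted p = 0.0081, edgeR) over 8 libraries and ended the call of no member. Genes called between the strains numbered 1652 with it, 1566 in the same 8 libraries without it, 481 with the library letter as a block and 741 with the intestine score as a covariate, against 2525. Without 1 library they ran from 1570 (without the N2 library of series F) to 4604 (without that of series B). *fmo-2* turned to -0.053 with limma-voom and ran from -0.14 to 1.57 without 1 library, *fmo-4* turned to -0.027 with the molting score as a covariate and ran from -0.11 to 0.24, and *fmo-5* ran from -0.011 to 0.32.

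Without 1 parental library, the genes varying among RIAILs numbered 568 to 1207, and those differing between RIAILs and parents 3 to 6. Between RIAILs and parents DESeq2 called 73 genes and a term for the library letter 11, against 5. Log2 fold changes of RIAILs over parents near 0 changed sign. Without 1 library *fmo-2* ran from -0.093 to 0.59, *fmo-3* from -0.079 to 0.13 and *fmo-4* from -0.067 to 0.12. *fmo-3* was at 0.0017 without series C, and *fmo-4* at 0.0095 with a mean CPM of at least 1 and 0.013 with a term for the letter.

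Of 10 pairs of members, 6 passed after centring within series, against 3. Signs turned in pairs that did not pass, namely *fmo-1* with *fmo-4* (r = -0.0335 without series C), *fmo-2* with *fmo-3* (0.124 centred, 0.0127 with RLE size factors, 0.00052 without QX501 and QX505), *fmo-2* with *fmo-4* (0.185 centred, 0.0069 without these 2 lines) and *fmo-3* with *fmo-5* (-0.0439 centred). The 5 genes most like each member kept 3, 0, 3, 3 and 2 after centring for *fmo-1* to *fmo-5*. The causes were not tested. Depth limits *fmo-2* in series C, at 2 to 11 counts a library.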
